A study of Homo sapiens with 4 samples.

Results

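The regions described here are stretches of the genome with an ATF3 peak in all 4 libraries of the study whose peaks stood at least 2 times as high under cystine restriction as in full medium. There were 1181 of them among 10331 regions found in all 4 libraries (called common regions below) and among 44826 regions in all. ATF3 was mapped by CUT&Tag, in which an antibody against the protein brings a DNA-cutting transposase to its binding places, in SW480, an established human colorectal cancer cell line. For 24 h the cells were given full medium or a cystine-restricted one, and each medium had 2 libraries, each from about 100000 cells. The media were the only labelled difference. SW480 is a single line, the labels do not say whether the 2 libraries of a medium came from separate cultures, and an antibody-free control was not analysed here.

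ATF3 belongs to the bZIP transcription factors, which bind DNA as pairs of proteins, and it often pairs with a JUN protein. It is switched on by several kinds of stress, among them a shortage of amino acids, which acts through the translation of ATF4. Cystine is the oxidised form in which cultured cells take up cysteine, an amino acid needed for glutathione, and cells short of glutathione become prone to ferroptosis, a form of death by lipid peroxidation. CBS, the enzyme that the series' title sets beside ATF3, makes cystathionine from homocysteine on the route by which cells can make cysteine themselves.

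The height of a peak is given as the pileup of tags at its summit divided by the genome background of its library, that is, by the pileup expected if the tags were spread over the whole genome. Both were recovered from the deposited fold enrichment and p-value of each peak. The genome background was 1.08 to 1.32 tags, so the 4 libraries were of similar depth, and the lowest pileup listed on chromosomes 1 to 22 and X was 6 or 7 tags. In each region the highest peak of a library stood for that library. A region belonged to the set when the mean log2 height under cystine restriction exceeded that in full medium by 1 or more. The regions were thus chosen by their heights in these same libraries, which are given below as a description with no test. With 2 libraries against 2, no exact permutation test could go below p = 0.33 in any case.

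The typical doubled region had a modest peak in full medium and a clear one under cystine restriction. Its median height was 40.1 and 37.8 times the genome background in cystine-restricted replicates 1 and 2, and 16.3 and 15.2 times in full-medium replicates 1 and 2. In tags, these were median pileups of 52 and 41 against 18 and 20. The lowest pileup of a doubled region was 14 in each cystine-restricted library and 7 in each full-medium library. The highest was 454 and 401 against 171 and 184. The median difference was 1.18 on the log2 scale, with quartiles of 1.07 and 1.36 and a largest value of 2.89.

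Doubled regions made up 11.4% of common regions, which is the share the rule sets. Common regions as a whole were also higher under cystine restriction, with a median difference of 0.53. Relative to that general shift, the doubled regions stood 0.65 higher at the median. No common region was lower by 1 or more, the lowest difference being -0.99. Of the doubled regions, 807 had a difference from 1 to under 1.3, 193 from 1.3 to under 1.5, 155 from 1.5 to under 2, and 26 of 2 or more. Most of them thus lay close to the threshold, on the upper slope of a single distribution.

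**Figure D1:**
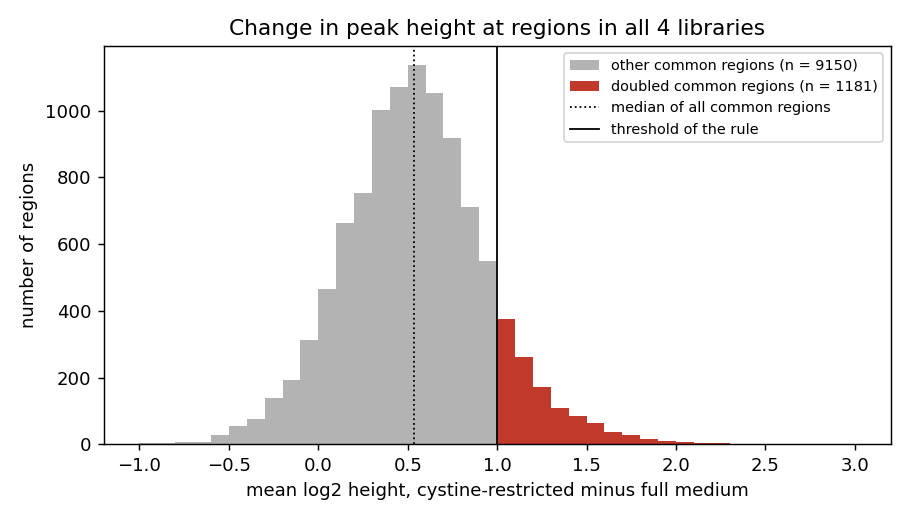
Histogram of the mean log2 height under cystine restriction minus that in full medium (x axis) for the 10331 common regions, with the number of regions on the y axis. The 1181 doubled regions (red) form the upper tail beyond the threshold of 1 (solid line), and the median of all common regions is 0.53 (dotted line).

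Counting error alone was large enough to move many regions across the threshold. From the recovered pileups, the standard error of a region's log2 difference was 0.28 at the median for doubled regions, and it ranged from 0.09 to 0.44. It covers counting error only. In 169 doubled regions the difference was above 1 by more than 2 of these standard errors, and in 833 it was above the median of common regions by as much. The other doubled regions stood above 1 by no more than their counting error allows for.

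The gap between the media was widest on chromosome 2, in the region chr2:106328723-106330121 (hg19, as are all positions here). Its height was 105.6 and 92.3 times the genome background in the cystine-restricted libraries and 11.7 and 15.2 times in the full-medium libraries. The mean difference of 2.89 (counting standard error 0.27) corresponds to 7.39-fold. Under cystine restriction it was a broad peak of 1367 and 1368 bp, whereas in full medium the listed peaks were only 150 and 151 bp long. The summits of the 4 libraries lay up to 437 bp apart, so the full-medium peaks are small pieces within the broader cystine-restricted one. When all peaks of a library in the region were summed, the difference was 2.46.

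The next 3 regions by this gap showed the same picture of a low full-medium peak beside a tall cystine-restricted one. At chr1:145014571-145015892 the heights were 156.4 and 119.01 under cystine restriction and 19.9 and 18.97 in full medium, a difference of 2.81 (counting standard error 0.23). At chr7:106209075-106209926 they were 97.9 and 91.3 against 14.5 and 16.7, a difference of 2.61 (0.26). The summits there lay within 17 bp of each other in the 4 libraries, so the same position was compared. At chr6:3592308-3593277 the heights were 101.7 and 91.3 against 17.2 and 16.7, a difference of 2.51 (0.25). In each of these the lower cystine-restricted height was more than 5 times the higher full-medium one.

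The other regions complete the 8 with the widest gap, and the media did not overlap in any of them, as in all doubled regions. The region chr13:46869785-46871707, the widest of the 8 at 1923 bp, had heights of 85.5 and 72.9 under cystine restriction and 14.5 and 10.6 in full medium. The region chr2:97579297-97580656 had the lowest heights of the 8, 50.1 and 55.4 against 9.94 and 9.86, and its summits lay up to 481 bp apart. The region chr7:28610080-28611320 had 91.7 and 82.1 against 17.2 and 12.9. These regions were small in full medium, with 11 to 19 tags at the summit. The region chr8:128047281-128048789 was different, since it was already tall in full medium, at 47.9 and 47.8 times the genome background from 53 and 63 tags. Under cystine restriction it reached 229.6 and 222.3, a difference of 2.24 with the smallest counting standard error of the 8, 0.15.

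**Figure D2:**
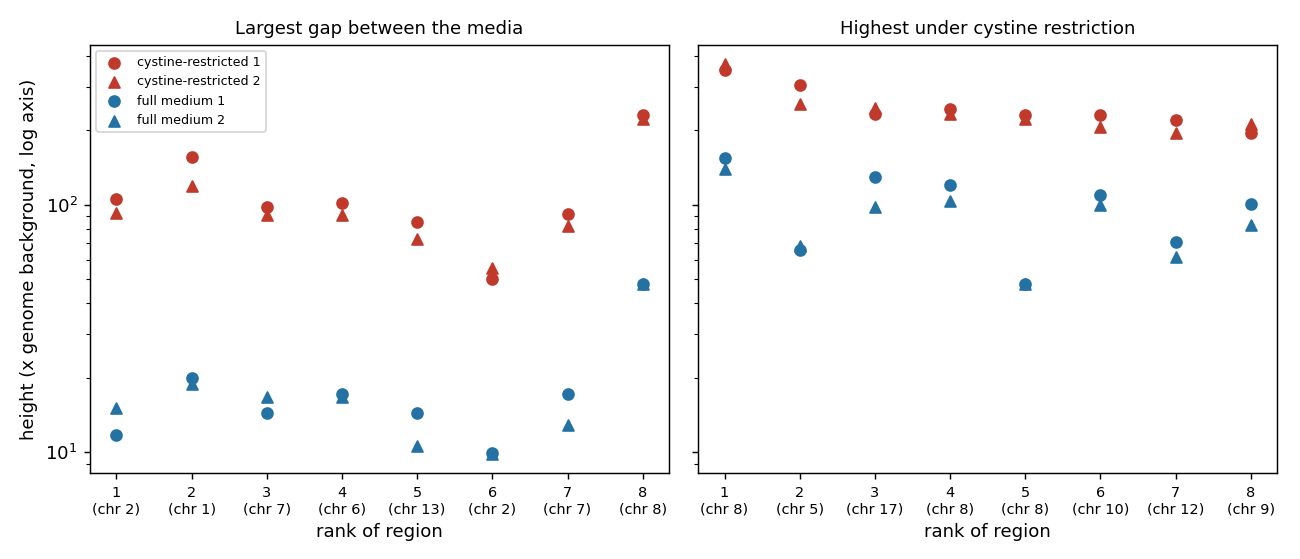
Height of each library (y axis, multiples of the genome background, log axis) for the 8 doubled regions with the widest gap between the media (left) and the 8 highest under cystine restriction (right), in rank order with their chromosome. Red symbols are the cystine-restricted and blue symbols the full-medium libraries; the media do not overlap in any region, and the region on chromosome 8 at rank 8 on the left is the one at rank 5 on the right.

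The tallest doubled regions under cystine restriction were mostly tall in full medium too. The tallest was chr8:126557732-126559055, with heights of 349.8 and 369.9 under cystine restriction and 154.5 and 139.6 in full medium. Its difference was 1.29, with a counting standard error of 0.09, since 171 to 454 tags stood behind each height. The region chr5:131792803-131794590 came next, with 305.1 and 254.6 against 65.97 and 68.3, a difference of 2.05. In that region the summits of the 4 libraries lay up to 955 bp apart, so the libraries were not all compared at the same position. With all peaks of a library in the region summed, the difference was 1.32. Next was chr17:31325477-31326427, with 233.5 and 246.3 against 129.2 and 97.9, a difference of 1.09.

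The remaining tall ones lay on chromosomes 8, 10, 12 and 9. The region chr8:127445583-127447243 had heights of 243.5 and 232.5 under cystine restriction and 120.2 and 103.2 in full medium. The region chr10:30782096-30783426 had 231.2 and 205.7 against 109.4 and 99.4. Both were close to the threshold, with differences of 1.10 and 1.06. The region chr12:57847879-57849275 was well above it, with 220.4 and 194.7 against 70.5 and 61.4 and a difference of 1.65. The region chr9:130727424-130728576 had 194.2 and 212.2 against 100.3 and 82.7, a difference of 1.16. In these 4 regions the summits of the 4 libraries lay within 28 bp of each other. Of the 8 tallest, 3 lay on chromosome 8, counting the one at chr8:128047281-128048789 given above. That chromosome had 42 doubled regions among 366 common ones, or 11.5%, against 11.4% on all chromosomes.

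At the threshold itself, the differences of the regions on either side were nearly equal, while their heights varied. Just inside were chr6:88411401-88412611, chr13:99223090-99223712 and chr14:59628278-59628864, with differences of 1.0001, 1.001 and 1.0013. Just outside were chr5:97386182-97387246, chr11:73309061-73309761 and chr1:59049802-59051785, with differences of 0.9999, 0.9998 and 0.9998. The first region inside had heights of 31.6 and 29.5 against 18.1 and 12.9, and the first outside 23.9 and 25.8 against 13.6 and 11.4. With all peaks of a library summed, the difference was 0.10 at chr6:88411401-88412611 and 0.12 at chr1:59049802-59051785.

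Doubled regions were spread over the whole range of full-medium heights, less often among the tallest peaks. When common regions were ranked by their mean full-medium height, the doubled share was 15.4% in the lowest of 10 equal parts, 13.3% in the fifth and 6.49% in the highest. Ranked by cystine-restricted height, it was 0% in the lowest part, 12.5% in the fifth and 19.9% in the highest, where 206 of 1033 common regions were doubled. Both rankings use the heights that chose the regions. The other common regions had nearly the same median height in full medium, 18.98 and 16.7 times the genome background in replicates 1 and 2, and a lower one under cystine restriction, 26.2 and 23.99. Some of the other common regions were far taller than any doubled one, with mean heights up to 3831 under cystine restriction.

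**Figure D3:**
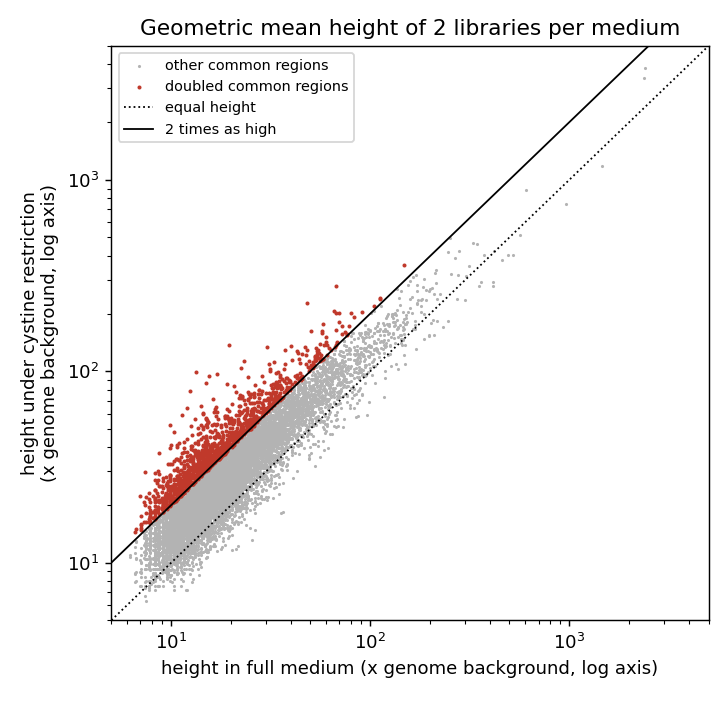
Geometric mean height of the 2 libraries of each medium, in multiples of the genome background on log axes, with full medium on the x axis and cystine restriction on the y axis. Each point is a common region; the doubled regions (red) lie on or above the solid line of 2 times the height, and the tallest common regions (grey, top right) lie below it.

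The single libraries gave the same order for each doubled region. Both cystine-restricted heights exceeded both full-medium heights in 1181 of 1181, against 72.8% of all common regions. The rule averages these same heights, so this order follows from it in large part and is no separate support. Both cystine-restricted heights were at least 2 times both full-medium heights in 476 doubled regions, or 40.3%, which is 4.61% of common regions. In 665 the difference was 1 or more in each same-numbered pair, which is 6.44% of common regions. A region that meets either condition meets the rule, so no other common region could be counted. The median difference was 1.18 and 1.34 for cystine-restricted replicate 1 against full-medium replicates 1 and 2, and 1.11 and 1.24 for cystine-restricted replicate 2. The share of all common regions at 1 or more in these 4 comparisons was 13.6%, 22.8%, 10.3% and 17.7%, and the counts among doubled regions were 877, 1042, 749 and 969. These comparisons are those the rule averages, so the counts follow from it in part.

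Within a medium, the 2 libraries differed less. For doubled regions this follows in part from the rule, which required a difference of 1 or more between the media. Over all common regions the median difference between the media was 0.53. For doubled regions the median of the absolute log2 difference was 0.19 between the cystine-restricted libraries and 0.25 between the full-medium libraries, against 0.21 and 0.25 for all common regions. Across doubled regions, the log2 heights of the 2 cystine-restricted libraries had a Pearson correlation of 0.93 and those of the 2 full-medium libraries one of 0.88. These correlations are over 1181 regions of the same libraries and describe how alike the libraries rank them.

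Doubled regions were also broader under cystine restriction. The median width of the highest peak was 871 and 803 bp in cystine-restricted replicates 1 and 2 and 466 and 505 bp in full-medium replicates 1 and 2. In the other common regions it was 743 and 663 bp against 508 and 531.5 bp. Both cystine-restricted peaks were wider than both full-medium peaks in 974 doubled regions, or 82.5%, and in 46.4% of the other common regions. A taller peak stays above the caller's cutoff over more bases, so width was not independent of the heights that chose the regions.

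A doubled region was usually a single peak. More than 1 peak was listed in 59 and 67 doubled regions in the cystine-restricted libraries, or 5.00% and 5.67%, and in 155 and 118 in the full-medium libraries, or 13.1% and 9.99%. Among the other common regions these shares were 7.04% and 9.15% under cystine restriction and 11.3% and 10.7% in full medium. The summits of the 4 libraries lay within 100 bp of each other in 607 doubled regions, or 51.4%, and in 46.2% of the other common regions. The median distance between the outermost summits was 91 bp against 130 bp. The median merged doubled region spanned 952 bp, against 877 bp for the other common regions. The narrowest doubled one spanned 241 bp and the widest 2341 bp. Of the doubled regions, 46, or 3.9%, were 1500 bp or wider, against 4.98% of the other common regions.

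The local background of doubled regions, which includes the peak's own tags, was higher under cystine restriction as well. The peak caller compares each summit with a local background, counted here over 10 kb. At doubled regions the median local background was 3.54 and 3.36 times the genome background in the cystine-restricted libraries and 2.05 and 1.96 times in the full-medium libraries. At the other common regions it was 2.90 and 2.71 against 2.29 and 2.16. The difference in local background between the media was 0.77 on the log2 scale at doubled regions and 0.33 at the others.

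The deposited fold enrichments, which divide by that local background, therefore differed less between the media than the heights. In the authors' lists, the median fold of doubled regions was 9.47 and 9.10 under cystine restriction and 5.94 and 5.93 in full medium, a median log2 difference of 0.60. In the other common regions the folds were 7.19 and 6.85 against 6.14 and 5.98. Only 47 doubled regions, and no other common region, had a deposited fold at least 2 times as high under cystine restriction. The region with the widest gap was among them, with folds of 13.4 and 13.3 against 4.67 and 5.13. The tallest, chr8:126557732-126559055, was not. Its folds were 8.08 and 8.68 against 7.33 and 7.79, because its local background was 55.3 and 45.3 tags under cystine restriction and 22.5 and 22.7 tags in full medium. Over the 15 regions named above for their gap or height, the log2 difference in deposited fold ran from 0.10 to 1.45. How much of this comes from the peak's own tags was not tested.

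Gained regions, those listed in each cystine-restricted library and absent from each full-medium list, were much lower than doubled ones. The definitions favour this order. A doubled region needed a listed full-medium peak and 2 times its height under cystine restriction. A gained region only had to pass the list cutoff under cystine restriction. The 5685 gained regions had a median height of 12.01 under cystine restriction, against 38.5 for doubled regions. Of the gained regions, 51, or 0.897%, were as high as the median doubled region. Most doubled regions had full-medium peaks above the lowest listed pileup, with lower quartiles of 14 and 15 tags in replicates 1 and 2. In the other common regions these quartiles were 15 and 16 tags. Both full-medium pileups were 10 tags or fewer in 31 doubled regions, a count not made for the other common regions. Taken singly, 94 and 73 of 1181 doubled regions had 10 tags or fewer in full-medium replicates 1 and 2. Among the 9150 other common regions, 501 and 353 did, so doubled regions were somewhat more often near the lowest pileups.

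Doubled regions had fewer common regions around them, but more often another doubled one. Another doubled region lay within 50 kb, measured between midpoints, for 194 of 1181, or 16.4%, and a doubled region lay that close for 9.25% of the other common regions. Within 10 kb the shares were 4.83% and 1.78%. For any common region as a neighbour the order was the opposite: 54.6% of doubled and 62.9% of other common regions had one within 50 kb. Gained regions were about equally near, within 50 kb of 39.1% of doubled and 35.98% of other common regions. The share of doubled regions with a doubled neighbour moved with the number of regions chosen and was 9.63% when the summits of the 4 libraries had to lie within 200 bp, and 0% for the 47 regions doubled by deposited fold.

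**Figure D4:**
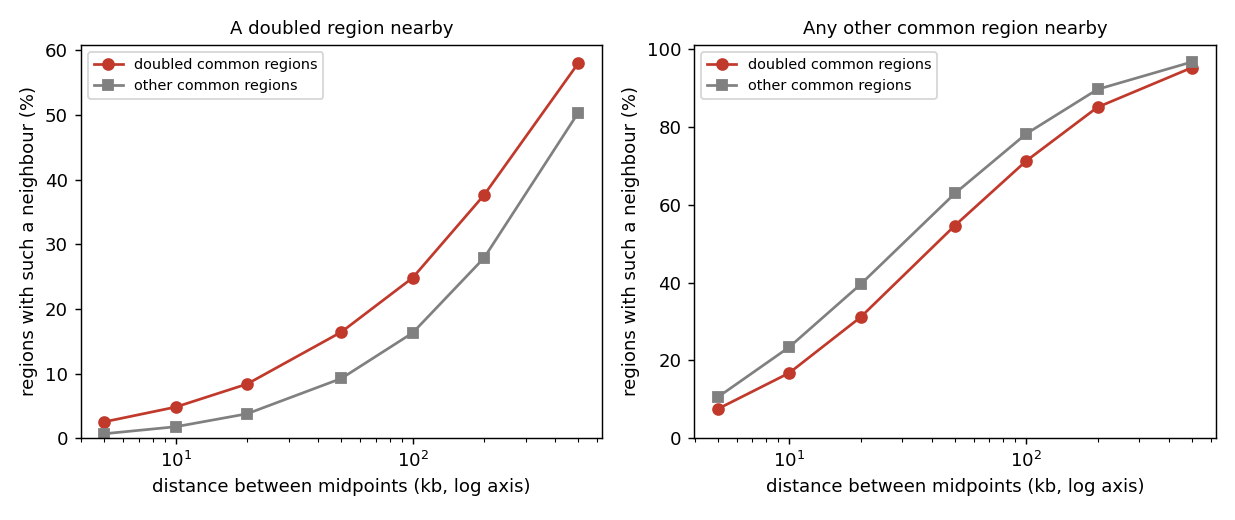
Share of doubled (red) and other common regions (grey) that have a doubled region (left) or any other common region (right) within the distance on the x axis (kb between midpoints, log axis). The red line lies above the grey one on the left, at 16.4% against 9.25% within 50 kb, and below it on the right, at 54.6% against 62.9%.

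Common regions next to a doubled one had somewhat larger differences between the media themselves. Among common regions that were not doubled, the median difference between the media was 0.70 for the 64 within 5 kb of a doubled region. It was 0.57 both for the 282 at 5 to 20 kb and for the 500 at 20 to 50 kb, and 0.52 for the 645 at 50 to 100 kb. Farther away it was 0.48 for the 3116 at 100 to 500 kb, 0.45 for the 1738 at 500 to 1000 kb, and 0.46 for the 2805 beyond. Regions this close share their local surroundings and are not independent observations.

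Most doubled regions stood alone, and a few formed short runs. When members with midpoints at most 50 kb apart were joined, 987 were single, 72 runs had 2, 11 had 3, 3 had 4 and 1 had 5. The longest run, chr10:3797015-3895015, held 5 of the 6 common regions in its 98.0 kb, with differences of 1.01 to 1.35 and heights of 15.7 to 47.0 under cystine restriction. Among the runs of 4 or more, the one at chr20:352117-383298 held the largest single difference, with members from 1.02 to 1.73. Its first 3 members, chr20:352117-353124, chr20:353415-354679 and chr20:361188-363150, had differences of 1.73, 1.68 and 1.58. Their heights ran from 91.7 to 173.4 under cystine restriction and from 21.2 to 57.8 in full medium.

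The other runs of 4 lay on chromosomes 8 and 19 and held tall peaks. The run at chr8:126556669-126615102 contained the tallest doubled region, and its other 3 members had heights of 73.97 to 167.9 under cystine restriction and 30.7 to 74.1 in full medium. The run at chr19:43336320-43404021 held 4 of 5 common regions, with differences of 1.01 to 1.58. Its tallest member, chr19:43355170-43356441, had heights of 211.9 and 190.04 against 69.6 and 64.5. In each of these 4 runs 1 common region in the span was not doubled. The runs were picked for description after their values were seen.

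Doubled regions occurred on each of the 23 chromosomes. Their share of common regions was lowest on chromosome 19, with 55 of 673 or 8.17%, followed by chromosome 14 with 8.86% and chromosome 4 with 9.09%. The highest share was that of chromosome 9, where 66 of 421 or 15.7% were doubled, then chromosome 6 with 15.1% and chromosome 10 with 13.9%. The shares of the other 17 chromosomes lay between 9.18% and 13.7%. Common regions of chromosome 19 also had the lowest median difference, 0.42, and those of chromosome 10 the highest, 0.61. Chromosome 21, which carries CBS, had 17 doubled regions among 173 common ones, or 9.83%, against 11.4% on all chromosomes. Without full-medium replicate 1 the share was 13.6% on chromosome 19 against 17.6% on all chromosomes, and without full-medium replicate 2 it was 6.64% against 9.80%. The contrast was smaller on other scales. With each library centred on its median common height it was 1.19% against 1.26%, and with 5 tags added to each pileup 5.20% against 5.95%. In these 4 settings the share on chromosome 9 was 19.3%, 11.4%, 1.66% and 7.60%.

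**Figure D5:**
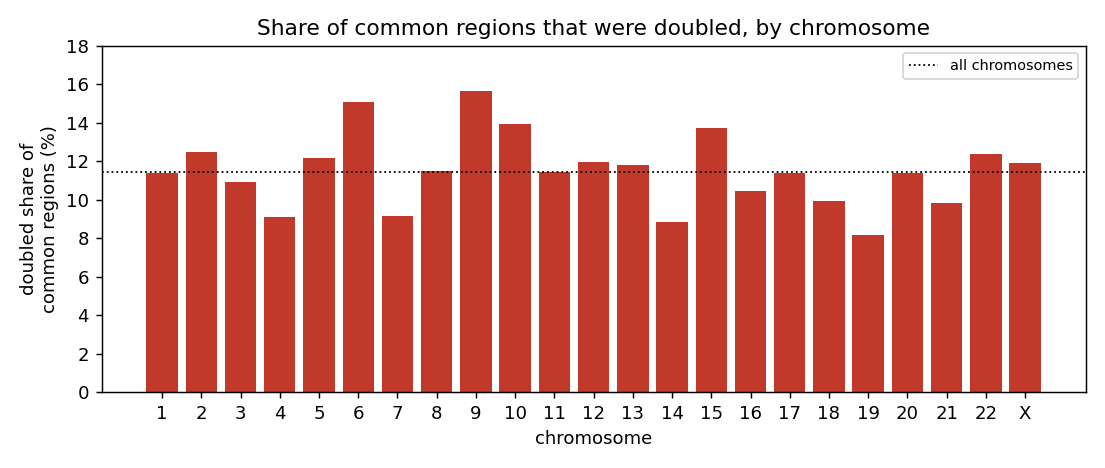
Share of common regions that were doubled (y axis, percent) on each chromosome (x axis); the dotted line is the share over all chromosomes, 11.4%. Chromosome 19 has the shortest bar, 8.17%, and chromosome 9 the tallest, 15.7%.

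The number of doubled regions depended on the libraries and on the scale. It was 2281 of 12977 regions without full-medium replicate 1, and 1199 to 1619 without any other single library. With each library centred on its median common height, which removes a shift of 0.57 between the media, 130 regions remained at 1 or more. The genes at these positions, their distance to start sites and the bound sequence were not analysed here.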

How the data were processed

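Peaks were listed separately for each of the 4 libraries, and the genome build was hg19, per the submitters' processing notes, which name MACS2 2.2.7.1, BWA 0.7.17, fastp 0.19.7 and bcl2fastq 2.17. The caller's options were not given in the sources used here. Each deposited peak has a fold enrichment (a ratio of summit to local background), a −log10 p, a −log10 q of at least 1.30 and a whole-number score, which was not used. From the deposited fold, (pileup + 1)/(background + 1), and the Poisson −log10 p, a whole-number pileup and a background were solved for each peak; the p-value was matched within 0.1% for 100% of peaks. All backgrounds were the lowest value of the list or a multiple of 0.015 tags (tolerance 0.1 steps), as 150 bp tags over 10 kb would give. Height was pileup over that lowest background. Peaks on chromosomes 1 to 22 and X sharing 1 bp or more were merged. The counting standard error came from the 4 pileups as Poisson counts.

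The members, the gene lists and the settings were chosen with earlier results of these data known. Regions named were the 8 with the widest gap between the lower cystine-restricted and the higher full-medium height, the 8 highest under cystine restriction, and 3 on each side of the threshold. No hg19 annotation was used, so the named genes, 12 gene lists, start sites and motifs are not reported. Alternatives were other thresholds, scales, overlaps and weak-peak filters, each library left out, and the replicate number as a block. Recovery, merging and differences were tested on simulated lists. Python 3.11.15, numpy 2.4.6, scipy 1.17.1, pandas 2.3.3 and matplotlib 3.10.9 were used.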

Additional observations from a re-analysis of the deposited data

Results flagged for a closer look

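Peaks of chromosome Y and of the unplaced and alternate contigs enter none of the comparisons above. There, 13 of 178 regions in all 4 libraries, or 7.30%, met the same rule of a doubled height, with a median log2 difference of 1.17. None was on chromosome Y, and 6 lay on the unplaced contig gl000225. Their summit pileups ran from 59 to 3701 and from 45 to 3062 tags in cystine-restricted replicates 1 and 2, and from 21 to 1411 and from 23 to 1531 tags in full-medium replicates 1 and 2.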

How the results depend on the processing

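The requirement of summits within 200 bp was chosen after seeing the data. The number of doubled regions was 2441 at a threshold of 0.8 and 546 at 1.2. It was 488 with a reciprocal overlap of 50%, 696 with summits within 200 bp, 615 with 5 tags added to each pileup, 130 with median-centred libraries and 47 by deposited fold. Leaving out 1 library gave 1199 to 2281 regions, or 9.80% to 17.6% of the regions common to the remaining libraries. Required in both same-numbered pairs (replicate block), 665 regions were doubled, or 6.44% of common regions, with a median difference of 1.31. Same-numbered libraries deviated together with a correlation of -0.02 over the doubled regions and 0.01 over all common regions. A correlation over regions misses a shift of a whole library, so it cannot decide whether the numbers pair the libraries. A −log10 q of at least 5 gave 798 of 7397 common regions (10.8%) and summed pileups 1272 of 10331 (12.3%). The median difference, 1.18, was 0.99 and 1.39 at thresholds of 0.8 and 1.2, 1.10 by deposited fold, and 1.17 to 1.20 with 1 library left out. Members were chosen anew at each setting, so the cutoff largely sets this median and its likeness between settings shows little. With median-centred libraries it was 1.17 although only 130 regions remained. Except where fewer regions or libraries were required by construction, the cause was not tested. Of the 15 regions named for gap or height, 5 stayed at 1 or more by deposited fold, 10 with centred libraries, and 12 to 15 with 1 library left out. None of the named regions had a difference of the opposite sign in any alternative run for it. In each named region both cystine-restricted heights exceeded both full-medium heights. Leaving out 1 library or taking 1 same-numbered pair could therefore not reverse the sign. In the regions named for gap, the lower cystine-restricted height was above the higher full-medium one by 2.21 or more on the log2 scale. These could not fall below 1 with 1 library left out, so the 12 to 15 kept were in part fixed by the choice. The share near start sites, the share with an AP-1 motif and the gene lists were not run. For regions near the threshold, the counting error was as large as their distance from it, and the effect of depth was not tested.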

Other observations

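The general shift between the media had a longer tail upwards than downwards. Of the common regions, 152 lay at least 1 above the median difference of 0.53 and 57 at least 1 below it. Neighbouring common regions had similar differences over short distances: over 558 adjacent pairs at most 5 kb apart the differences had a Pearson correlation of 0.64, over 1824 pairs at 5 to 20 kb 0.31, over 3624 pairs at 20 to 100 kb 0.16, and over 3109 pairs at 100 to 500 kb 0.11. The pairs come from the same 4 libraries, so these values are a description. Among windows of 1 Mb, picked after their counts were seen, the one from 43 to 44 Mb on chromosome 19 held the most doubled regions, 9 of 20 common ones, although chromosome 19 had the lowest share of all chromosomes. The windows from 19 to 20 Mb on chromosome 11 and from 66 to 67 Mb on chromosome 17 held 6 each, of 12 and 17 common regions.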
